A study of Mus musculus with 26 samples.

Results

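The imprinted miRNA cluster that runs from mir-379 to mir-410 on mouse chromosome 12 was followed in small RNA libraries of the dorsal (dHC) and ventral hippocampus (vHC). Members were taken from the table by name: 37 miRNA precursors of the cluster were listed, and 35 of them have an entry in the deposited table, which holds 1054 miRNA entries. The other 2, mir-453 and mir-654, have no entry. All 35 passed a filter on low counts that 463 miRNA entries passed, and no member was at 0 in any library. Male C57BL/6J mice of 2 to 3 months were made to swim for 6 min in water of 18 °C, and tissue was taken 45 min after the start of the swim. Control mice stayed in their homecage. Of the 26 libraries, 14 come from vHC (8 homecage, 6 swum) and 12 from dHC (6 homecage, 6 swum), and tissue of both hemispheres was used. All groups are wild-type males of 1 strain, so no other sex, genotype or later time after the swim is covered. The labels do not tie a dHC library to the vHC library of the same mouse, and p-values measure the spread between libraries. Libraries carry the name of the group and the number of the label, such as swim dHC 6. The labels also give a block for each library, and the 3 blocks hold 10, 8 and 8 libraries with every group in each.

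MiRNAs are cut from hairpins in longer transcripts by Drosha and Dicer, and 1 or both arms of the hairpin are loaded into Argonaute, where bases of the 5′ end, the seed, pair with target mRNAs. The cluster is transcribed from the maternal chromosome only, as part of the Dlk1-Dio3 imprinted domain, which also holds the long non-coding RNAs Meg3, Rian and Mirg. In the adult mouse its miRNAs are found mainly in brain. In neurons the transcription factor MEF2 drives the cluster after activity, miR-134 holds back the growth of dendritic spines through Limk1, and loss of the whole cluster makes mice more anxious. Whether a swim stress or the position along the hippocampus goes with a change in these miRNAs is therefore a question the design can address, miRNA by miRNA.

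In the GENCODE vM21 annotation of GRCm38, the 37 hairpins lie on the plus strand of chromosome 12 between 109709060 and 109743795, a span of 34.7 kb. Neighbouring hairpins are separated by a median of 556 bases, with gaps from 20 to 4368 bases. Mirg, annotated from 109729764 to 109749460, contains the last 13 hairpins, from mir-382 on. Of these, 4 lie within an exon of at least 1 Mirg transcript (mir-134, mir-485, mir-377 and mir-410), 4 overlap an exon edge and 5 are intronic. The 24 hairpins before them lie outside Mirg, and their overlap with other annotated genes was not checked. Of the tested members, 12 lie in Mirg and 23 upstream of it.

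The mature sequences of mir-134, of the 5 most abundant members and of mir-382, mir-409 and mir-543, whose libraries separated the regions completely, are given here because the results below turn on these. The last 3 were chosen after their values were seen. Sequences are those of RefSeq on GRCm38.p6, 5′ to 3′, with the seed (bases 2 to 8) in capitals.
miR-134-5p: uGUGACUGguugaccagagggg
miR-134-3p: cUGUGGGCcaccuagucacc
miR-411-5p: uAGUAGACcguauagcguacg
miR-411-3p: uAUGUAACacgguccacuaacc
miR-369-5p: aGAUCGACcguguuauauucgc
miR-369-3p: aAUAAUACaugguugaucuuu
miR-379-5p: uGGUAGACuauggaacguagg
miR-379-3p: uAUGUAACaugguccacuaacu
miR-487b-5p: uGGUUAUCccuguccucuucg
miR-541-5p: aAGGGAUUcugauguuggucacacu
miR-541-3p: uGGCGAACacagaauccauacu
miR-382-5p: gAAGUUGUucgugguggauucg
miR-382-3p: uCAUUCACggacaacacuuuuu
miR-409-5p: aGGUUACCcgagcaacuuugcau
miR-409-3p: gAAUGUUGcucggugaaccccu
miR-543-5p: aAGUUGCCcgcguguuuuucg
miR-543-3p: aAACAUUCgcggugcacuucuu

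RefSeq lists 69 mature sequences of the 37 hairpins, 19 to 25 bases long, and these carry 63 different seeds. For mir-376c, mir-487b and mir-539 only the 5p arm is listed, and for mir-485 only the 3p arm. Seeds of arms not listed are left out of these counts. No listed seed is shared by 3 or more members. A pair of members shares each of 6 seeds: AUGUAAC in miR-379-3p and miR-411-3p, GGUAGAC in miR-379-5p and miR-1193-5p, GGUUGAC in miR-758-5p and miR-1197-5p, GGUUGCC in miR-453 and miR-496a-5p, GGUUGUC in miR-410-5p and miR-494-5p, and UGGAUAU in miR-376b-5p and miR-376c-5p. Some words recur, such as GGUUG, which both miR-134-5p and miR-369-3p hold. This word, found by looking at the sequences, is in 12 of 69 mature sequences (17.4%) against 3.10% of the 1679 mature miRNAs in the RefSeq table, and in 8 of the 12 it lies wholly within the seed, so this count overlaps with the shared seeds above. ACACGG, as in miR-411-3p, is in 5 of 69 (7.25%) against 0.417%. UGGUC is in 8 of 69 (11.6%) against 2.68%, and only the mature strand was searched in each case. The words were chosen after the member sequences were seen, so these shares are a description. The 1679 sequences hold the members too, and among all others the shares were 2.48% for GGUUG, 0.124% for ACACGG and 2.30% for UGGUC.

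Each library held between 465387 and 4819724 miRNA counts, with control dHC 24 the shallowest and swim dHC 22 next at 1357739. The counts are expected counts per hairpin, so both arms of a hairpin are pooled. For 11 of the 35 members they were not whole in some libraries. Among these were mir-379 and mir-411 (12 libraries each), mir-376b and mir-376c (15 each), mir-381 (10) and mir-300 (9). Whether reads were shared between entries of like sequence was not tested. Levels are given as CPM, counts scaled to a common miRNA total after TMM normalization. Swim dHC 6 was the lowest or the highest of its group for 21 of 35 members and for 57.0% of all tested miRNAs, and 5 other libraries were so for 18 or 19 members. Control vHC 1, labelled block 1, correlated with the other block 1 libraries at r = -0.12 over all tested miRNAs, after region means were removed, and at r = 0.24 with block 2. All other block 1 libraries correlated with block 1 at r = 0.31 or more. Of the marker miRNAs for cell types, all passed the filter, among them mir-124-1 to mir-124-3, mir-128 and mir-138 entries of neurons, summed at 78861.8 to 119999.6 CPM, and miR-219a and mir-338 of oligodendrocytes at 3321 to 7617 CPM.

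Together the 35 members took 4.70% ± 0.787 (SD, n = 26) of all miRNA counts. Their mean levels spanned 1331-fold, from 4.27 CPM for mir-1197 to 5681 CPM for mir-411. The median member was at 776 CPM, against 130 CPM over all tested miRNAs, and 15 members were above 1000 CPM while 7 were below 100 CPM. MiRNAs are known to differ in how well they are ligated into a library, so the order of levels between miRNAs is a rough one. Names are given without the species prefix except where levels are first given. The first 3 were mmu-mir-411 at 5681 ± 1873, mmu-mir-369 at 5547 ± 1135 and mmu-mir-379 at 5502 ± 1915 CPM (SD, n = 26). Their means lay closer together than their SDs. These SDs are between libraries, and differences between members within libraries were not tested. MiR-369-3p is known for its part in translation control at AU-rich elements. Next came mir-487b at 4377 ± 917 CPM and mir-541 at 2944 ± 666 CPM, and the 5 together made up 51.2% of the cluster. mir-382 at 2862 ± 646 CPM was next to mir-541, and its mean lay within the SD of mir-541. mmu-mir-134, the best studied member, was the 24th of the 35, at 313 ± 67.6 CPM, and the 190th of all tested miRNAs. Its neighbours in the order were mir-377 at 353 ± 167 CPM and mir-496a at 305 ± 76.6 CPM, and both means lay within the SD of mir-134. Level against position along the cluster gave a Spearman rho of 0.19 across the 35 members, which come from the same libraries. Abundant and scarce hairpins were neighbours, as with mir-1197, at 4.27 CPM, and mir-323, at 1014 CPM, which follow each other upstream of Mirg.

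**Figure D1:**
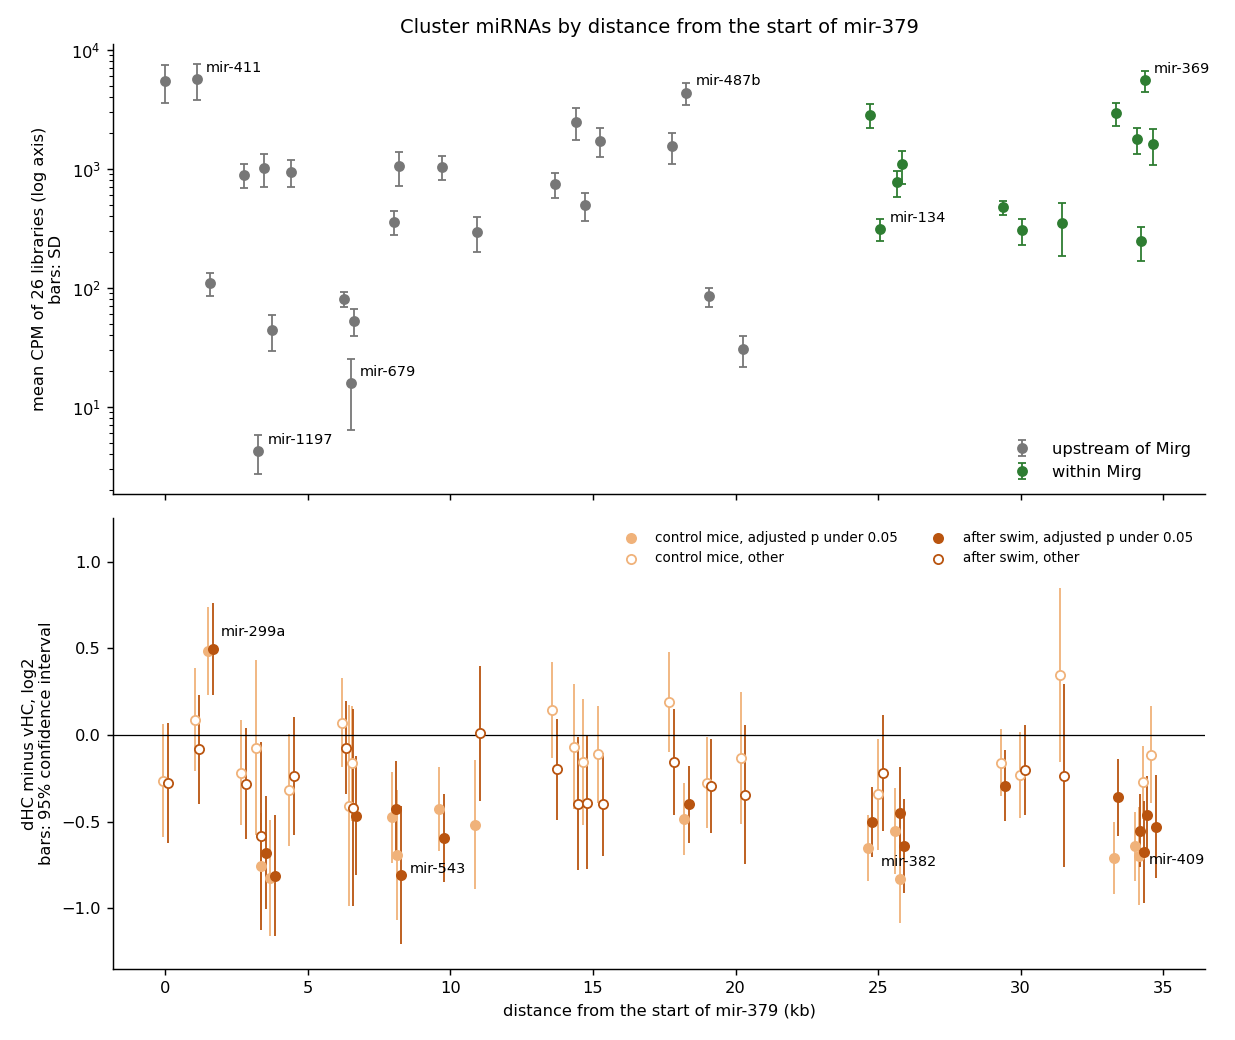
Top, mean level of the 35 members over 26 libraries (CPM, log axis, bars SD) against distance from the start of mir-379 in kb, with members within Mirg in green. Bottom, the dHC minus vHC log2 difference of each member in control mice and after swim (bars 95% confidence interval, filled points past an adjusted p of 0.05). Levels from 4.27 to 5681 CPM alternate along the cluster, and most differences lie below 0, with mir-299a above.

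Between the 2 regions, the cluster was lower in dHC than in vHC. The members took 5.03% ± 0.562 of miRNA counts in control vHC (n = 8) and 3.99% ± 0.618 in control dHC (n = 6), and 5.37% ± 0.589 in swim vHC and 4.30% ± 0.658 in swim dHC (both n = 6). Over the 14 vHC libraries the share was 4.09% at the lowest, 5.07% at the median and 6.42% at the highest, and over the 12 dHC libraries 3.03%, 4.13% and 4.94%. The regions overlapped on this sum. For the 12 members within Mirg they did not: their summed level was 18843 to 23316 CPM in vHC and 13586 to 17142 CPM in dHC. The 23 members upstream of Mirg summed to 23203 to 40876 CPM in vHC and 20107 to 33730 CPM in dHC, with overlap. Both sums are plain CPM without a block term. Their means in blocks 1, 2 and 3 were 32004, 24978 and 28051 CPM upstream, and 19580, 17535 and 17506 CPM within Mirg. In bulk tissue, fewer cells that make a miRNA and less of it per cell cannot be told apart.

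**Figure D2:**
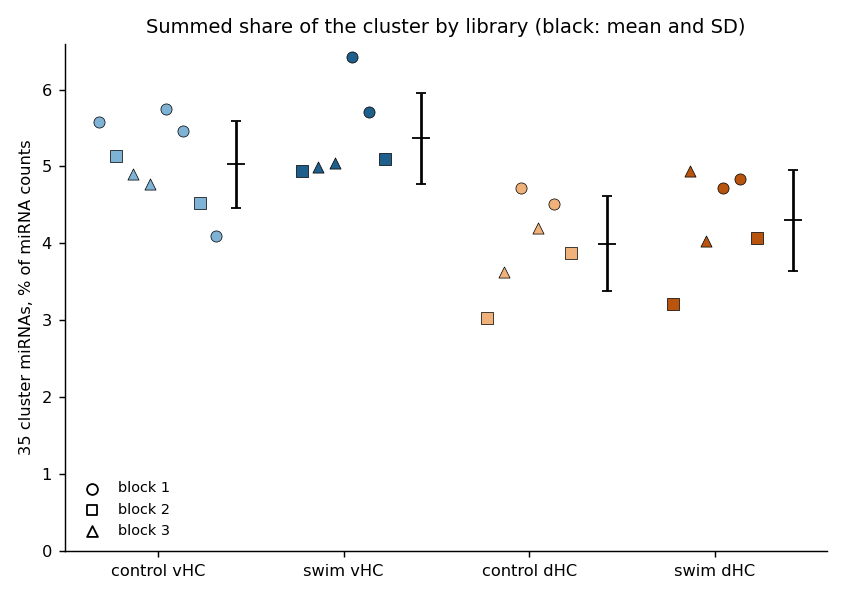
Share of all miRNA counts taken by the 35 members (%) in each of the 26 libraries, by group, with the marker shape giving the block and the black bar the mean and SD. The dHC libraries, 3.03% to 4.94%, sit lower than the vHC libraries, 4.09% to 6.42%, with overlap.

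In control mice, 14 of 35 members differed between regions at an adjusted p under 0.05 (edgeR quasi-likelihood test with block as a term, Benjamini-Hochberg over 463 miRNAs), against 104 of 463 tested miRNAs (22.5%). Of the 14, 13 were lower in dHC, where 14.7% of all tested miRNAs were called lower, and 1 was higher, where 7.78% were. The median log2 difference of the members was -0.27, that of all tested miRNAs 0.0054, and 29 of 35 members were below 0. mir-382 had the smallest p: it was at 2987, 3449 and 3837 CPM (lowest, median, highest) in control vHC and at 1886, 2198 and 2541 CPM in control dHC. Here every dHC library was below every vHC library, and the log2 difference was -0.65 (SE 0.0928, adjusted p = 6.48e-06). mir-541 was at 2896, 3414 and 4337 CPM in control vHC and at 1701, 2224 and 2538 CPM in control dHC, again without overlap (log2 difference -0.71, SE 0.102, adjusted p = 6.8e-06). mir-409 was at 1682, 1902 and 2765 CPM in control vHC and at 1086, 1386 and 1557 CPM in control dHC, likewise without overlap (-0.64, SE 0.0972, adjusted p = 1.46e-05). All 3 lie within Mirg.

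mir-485, whose 5p arm represses the synaptic vesicle protein SV2A in hippocampal neurons, was at 925, 1447 and 1743 CPM in control vHC and at 623, 893 and 1011 CPM in control dHC (log2 difference -0.83, SE 0.125, adjusted p = 1.58e-05). The groups overlapped, with control vHC 7 at 925 CPM inside the dHC range. mir-412, mir-758, mir-323, mir-487b and mir-668 followed, with log2 differences between -0.49 and -0.83 and adjusted p-values up to 0.000992. Of these, mir-323 was at 1079 to 1572 CPM in control vHC and 716 to 819 CPM in control dHC, with a wide gap between the groups. mir-758, a low member, was at 32.3 to 60.8 CPM in control vHC and 22.9 to 40.1 CPM in control dHC, where the ranges met. mir-543, mir-666, mir-495 and mir-667 complete the list of those called lower. In all, 8 members had no overlap between control dHC and control vHC, all lower in dHC (mir-323, mir-543, mir-487b, mir-382, mir-668, mir-541, mir-409 and mir-412), where 5.62% of all tested miRNAs were lower without overlap and 1.08% higher. At an unadjusted p under 0.05 were 17 members, against 37.6% of all.

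mir-299a went the other way. It was at 70.4, 89.1 and 117 CPM in control vHC and at 115, 126 and 137 CPM in control dHC, touching only at the edge (log2 difference 0.48, SE 0.124, adjusted p = 0.00384). After swim it was at 84.5, 91.7 and 115 CPM in vHC and 102, 136 and 159 CPM in dHC (0.50, SE 0.13, adjusted p = 0.00647). Of the 35 members it was the only one called higher in dHC in either test. It lies 1.58 kb from the start of mir-379, between mir-411 and mir-380, which were not called. mir-411, the most abundant member, was at 5399 ± 1710 CPM in control vHC and 5338 ± 1388 CPM in control dHC (log2 difference 0.09, SE 0.145, adjusted p = 0.679). Its plain means run opposite to the fitted difference, which carries the block term, and both are small beside the spread.

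After swim, 17 of 35 members were called between regions, against 94 of 463 miRNAs (20.3%), 16 of them lower in dHC (12.7% of all tested) and 1 higher (7.56%). The median log2 difference was -0.40 for members and -0.000186 for all tested miRNAs, with 33 of 35 below 0. mir-409 came first, at 1948, 2120 and 2339 CPM in swim vHC and 1211, 1468 and 1636 CPM in swim dHC (log2 difference -0.55, SE 0.103, adjusted p = 0.00028). mir-382 was at 2795, 3189 and 3902 CPM in swim vHC and 2032, 2360 and 2511 CPM in swim dHC (-0.50, SE 0.0983, adjusted p = 0.00045). Neither overlapped between regions. mir-485, mir-758, mir-495, mir-412, mir-323 and mir-369 followed with log2 differences between -0.46 and -0.81. mir-369, among the most abundant, was at 5484, 6280 and 7470 CPM in swim vHC and 4046, 4495 and 5780 CPM in swim dHC. In control mice its difference of -0.27 (SE 0.103) had an adjusted p of 0.0552. In all, 5 members had no overlap after swim (mir-758, mir-543, mir-495, mir-382 and mir-409), where 4.75% of all tested miRNAs were lower without overlap and 1.08% higher. At an unadjusted p under 0.05 were 22 members, against 32.4% of all.

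The 2 region tests compare different libraries, but both come from 1 fit with shared block terms and a shared estimate of the spread. They are therefore not independent. In both, 29 of 35 members had the same sign, 28 of them lower in dHC. Of all 463 tested miRNAs, 370 had the same sign and 182 were lower in both. Called in both were 13 members, against 66 of the 463 (48 lower), 12 lower (mir-323, mir-758, mir-666, mir-543, mir-495, mir-487b, mir-382, mir-668, mir-485, mir-541, mir-409 and mir-412) and mir-299a higher. mir-667 was called only in control mice, and mir-1193, mir-154, mir-369 and mir-410 only after swim, and the difference between the 2 tests was called for none of them (the interaction below). Over all 26 libraries, mir-543, mir-382 and mir-409 had every dHC library below every vHC library, as had 3.02% of all tested miRNAs, and no member had every dHC library above (0.432% of all). mir-382 was at 2795 to 3902 CPM in the 14 vHC libraries and 1886 to 2541 CPM in the 12 dHC libraries. mir-409 was at 1682 to 2765 CPM and 1086 to 1636 CPM. mir-543 was at 1044 to 1727 CPM and 193 to 969 CPM, with the 193 CPM from swim dHC 6. Without that library its difference after swim was -0.61 in place of -0.81, and the adjusted p was 0.000418 in place of 0.00342.

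The other 17 members were called in neither test. Their log2 differences ran from -0.41 (mir-679) to 0.35 (mir-377) in control mice and from -0.58 (mir-1197) to -0.07 (mir-494) after swim. Among them are mir-411 and mir-379 at the 5′ end of the cluster, mir-380, mir-1197, mir-329 and mir-494, the 3 mir-376 hairpins with mir-300 and mir-381, mir-539 and mir-544, and within Mirg mir-134, mir-496a and mir-377.

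By place in the cluster, 6 of the 12 members within Mirg and 7 of the 23 upstream of it were called lower in dHC in control mice, and 9 of 12 and 7 of 23 after swim. The median log2 differences were -0.45 within Mirg and -0.22 upstream in control mice, and -0.46 and -0.39 after swim. The difference between the 2 stretches was not tested. The region difference against the distance from mir-379 gave a Spearman rho of -0.18 in control mice and -0.17 after swim, across 35 members that share libraries. Against the GC content of the hairpin, the rho across 33 members was -0.55 in control mice and -0.31 after swim. Across 337 tested miRNAs with a hairpin in RefSeq it was -0.19 and 0.01.

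Within the 3 blocks, the median dHC minus vHC log2 difference of the members in control mice was -0.29, -0.20 and -0.34 in blocks 1, 2 and 3, and after swim -0.40, -0.40 and -0.25. In control mice 22 members were lower in dHC in every block and 2 higher in every block, and after swim 30 and 1. These counts stand without the share over all tested miRNAs. With 2 surrogate variables in place of the block term, 5 members were called in control mice and 6 after swim, and mir-299a, mir-323 and others changed sign. In that fit mir-382 was at -0.042 (adjusted p = 0.951) in control mice and mir-543 at -0.13 (adjusted p = 0.912) after swim. The second surrogate variable had 91.1% of its variance between regions. Without control vHC 1 the counts were 14 and 18, and without swim dHC 6 15 and 19. The share of all tested miRNAs called in these other fits is not given, so fewer calls may not be particular to the members.

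With block as a term and all libraries, mir-134 had lower values in dHC that did not pass the threshold. It was at 232, 340 and 414 CPM in control vHC and 224, 257 and 316 CPM in control dHC (log2 difference -0.34, SE 0.155, adjusted p = 0.11). After swim it was at 280, 355 and 402 CPM in vHC and 191, 267 and 484 CPM in dHC (-0.22, SE 0.163, adjusted p = 0.397). The groups overlapped in both. The 484 CPM is swim dHC 6, the highest of all 26 libraries for mir-134. Without that library the differences were -0.36 (adjusted p = 0.0366) and -0.43 (adjusted p = 0.0284), both past the threshold. With 2 surrogate variables in place of block, over all 26 libraries, they were -1.22 (adjusted p = 0.0426) and -1.11 (adjusted p = 0.0649). Within blocks 1, 2 and 3 it was lower in dHC each time, by log2 values of -0.30, -0.53 and -0.20 in control mice and -0.14, -0.41 and -0.25 after swim.

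**Figure D3:**
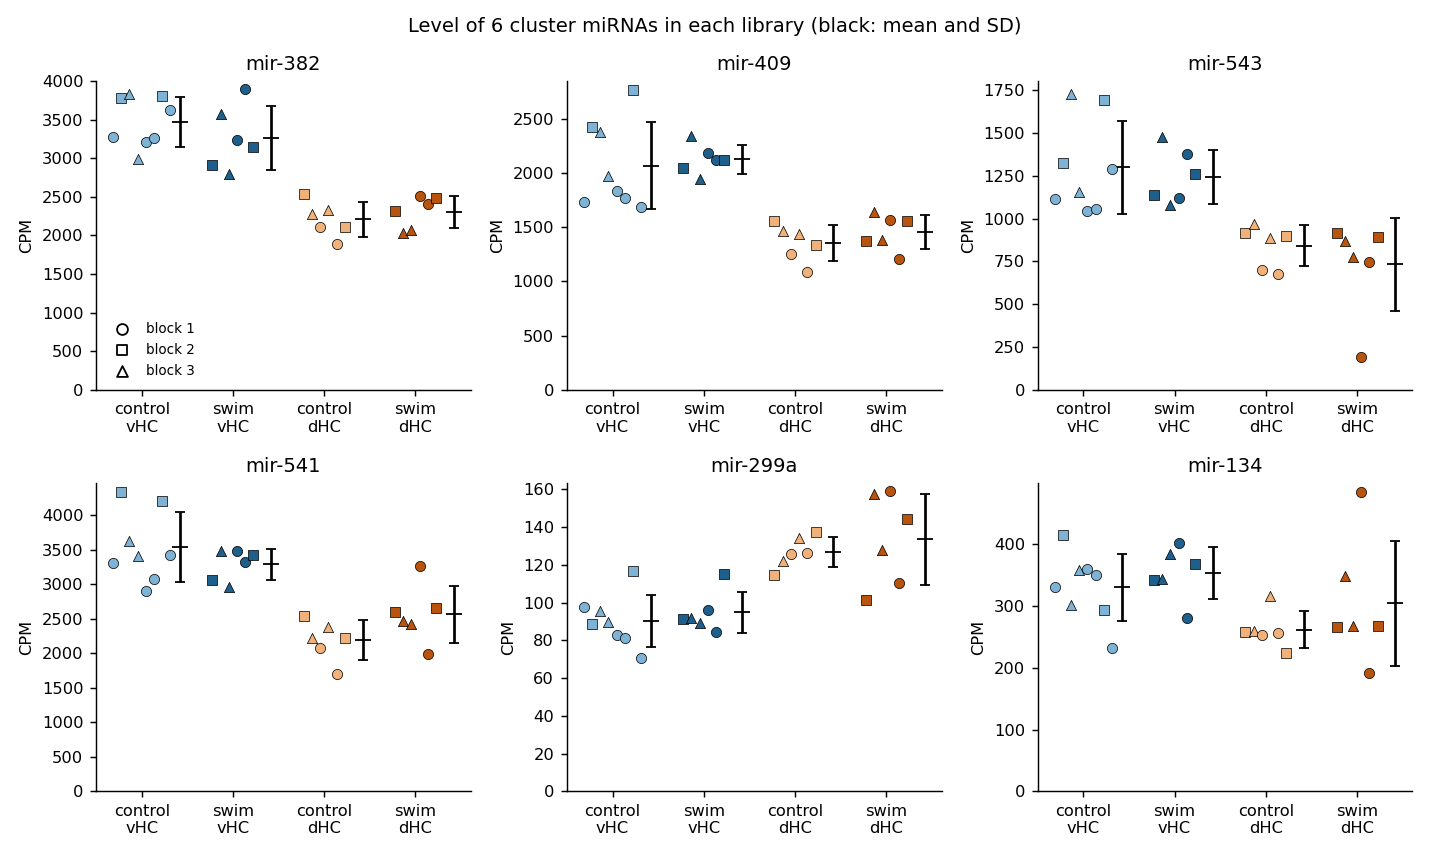
Level (CPM) of mir-382, mir-409, mir-543, mir-541, mir-299a and mir-134 in each library by group, with the marker shape giving the block and the black bar the mean and SD. For mir-382, mir-409 and mir-543 every dHC point lies below every vHC point, for mir-299a most dHC points lie above, and for mir-134 the groups overlap, with swim dHC 6 at 484 CPM.

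The other miRNAs of the Dlk1-Dio3 domain, which lie in Meg3, antisense to Rtl1 and in Rian, were also lower in dHC. Of 18 names listed, 14 were tested, and 12 of 14 were called lower in control mice and 8 of 14 after swim, none higher. Their median log2 differences were -0.51 and -0.43. mir-434 and mir-127, both antisense to the retrotransposon-like gene Rtl1, are the most abundant: mir-434, at 14239 CPM, differed by -0.41 (adjusted p = 0.00199) in control mice and -0.46 (adjusted p = 0.00174) after swim. mir-127, at 12358 CPM, differed by -0.46 (adjusted p = 0.000677) and -0.36 (adjusted p = 0.0121). mir-136, at 4398 CPM, had values of 0.03 (adjusted p = 0.935) and -0.33 (adjusted p = 0.226). mir-433 and mir-770 had the smallest p in control mice, with -0.88 and -1.05. Together these other miRNAs took 4.16% ± 0.443 of miRNA counts in vHC (n = 14) and 3.21% ± 0.429 in dHC (n = 12).

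Marker miRNAs of other cell types also differed between the regions. All 3 oligodendrocyte entries were called higher in dHC in both tests, with medians of 0.50 and 0.70, and summed to 3321 to 4939 CPM in vHC and 4329 to 7617 CPM in dHC. Of the 4 entries for choroid plexus and ciliated cells, mir-200a, mir-200b and mir-429 were called lower in dHC and mir-449a higher, and the sum was 382 to 657 CPM in vHC and 123 to 305 CPM in dHC, without overlap. Of the 8 neuron entries none was called, with medians of 0.23 and 0.13, and a sum of 84123.5 to 103540.2 CPM in vHC and 78861.8 to 119999.6 CPM in dHC. Several entries are hairpins of the same miRNA (mir-124, mir-128 and mir-138, and mir-219a of oligodendrocytes), so counts of entries are not counts of independent miRNAs. At an unadjusted p under 0.05 stood 3 of the 8 in control mice and 4 after swim, with the smallest adjusted p at 0.0781 and 0.0635. The mir-138 entries had positive values and the mir-128 entries negative ones. Of the 4 erythroid entries 2 were lower in control mice and 1 after swim, and neither the microglia nor the endothelial entries were called. The part of these cell types in the region differences of the cluster was not tested.

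At 45 min after the start of the swim, no member of the cluster passed the threshold. In the test of both swim coefficients together, 0 of 35 members and 0 of 463 miRNAs (0%) were called by edgeR, with an unadjusted p under 0.05 for 1 member and 3.46% of all tested miRNAs. In vHC 0 members were called (background 0%), with 5 of 35 at an unadjusted p under 0.05 against 7.34% of all, and in dHC 0 (background 0%), with 2 of 35 against 3.67%. DESeq2 with the same design also called 0 members in each test. The median log2 difference of the members was 0.06 in vHC and 0.02 in dHC, against -0.03 and 0.02 over all tested miRNAs. The confidence intervals limit what could have been missed: the 95% interval lay within a 1.5-fold change for 28 of 35 members in vHC and 29 in dHC, and within a 2-fold change for 35 and 34.

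The 5 members with an unadjusted p under 0.05 in vHC were mir-381, mir-376b, mir-300 and mir-410, with higher values after swim, and mir-667, with lower ones. mir-381, which with miR-134 and miR-329 takes part in activity-dependent dendrite growth, was at 542, 1270 and 2205 CPM in control vHC and 1369, 1739 and 2413 CPM in swim vHC. The groups overlapped, and the lowest value came from control vHC 1 (log2 difference 0.43, SE 0.182, adjusted p = 0.617). mir-376b, of a family whose hairpins are edited by ADAR enzymes in brain, was at 1407, 2549 and 2834 CPM in control vHC and 2220, 2716 and 5474 CPM in swim vHC (0.39, SE 0.17, adjusted p = 0.617). Here too control vHC 1 was the lowest, and the highest was swim vHC 29. mir-300 was at 834, 1529 and 2572 CPM in control vHC and 1731, 2006 and 2756 CPM in swim vHC (0.34, SE 0.156, adjusted p = 0.617). mir-410 was at 823, 1477 and 2594 CPM in control vHC and 1557, 1849 and 2582 CPM in swim vHC (0.25, SE 0.117, adjusted p = 0.617). Without control vHC 1 the differences were 0.35 for mir-381, 0.37 for mir-376b, 0.29 for mir-300 and 0.24 for mir-410. Without swim vHC 29 that of mir-376b was 0.24. On the chromosome mir-376b, mir-300 and mir-381 lie between 14.4 and 17.8 kb from the start of mir-379, with only mir-376a, which is not among the 5, between them.

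In dHC, mir-679 was at 4.46, 9.70 and 16.8 CPM in control and 6.25, 12.4 and 41.9 CPM after swim, a low member with wide spread (log2 difference 0.68, SE 0.303, adjusted p = 0.982). mir-541 was at 1701, 2224 and 2538 CPM in control dHC and 1993, 2535 and 3263 CPM in swim dHC (0.23, SE 0.102, adjusted p = 0.982). Without swim dHC 6 the values were 0.34 for mir-679 and 0.12 for mir-541. mir-495 and mir-329 had values of -0.19 and -0.23, and of -0.07 and -0.18 without that library. mir-134 had log2 differences of 0.05 (95% interval -0.24 to 0.34) in vHC and 0.16 (-0.15 to 0.47) in dHC, with adjusted p-values of 0.918 and 0.982, and the dHC value was 0.020 without swim dHC 6. The most abundant members had narrow intervals: mir-369 was at 0.11 (-0.07 to 0.29) in vHC and -0.02 (-0.21 to 0.18) in dHC, and mir-487b at -0.01 (-0.19 to 0.16) and 0.11 (-0.07 to 0.30). mir-411 was at 0.18 (-0.13 to 0.48) and 0.15 (-0.18 to 0.47), and mir-379 at 0.14 (-0.21 to 0.49) and 0.27 (-0.11 to 0.64). Within the blocks, 13 members were higher after swim in vHC in every block and 2 lower in every block, and in dHC 6 and 2. No share over all tested miRNAs is given for these counts, and the members come from the same libraries. The median swim minus control log2 difference of the members in vHC was 0.14, 0.13 and -0.02 in blocks 1, 2 and 3. In dHC it was -0.06, -0.004 and 0.09.

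**Figure D4:**
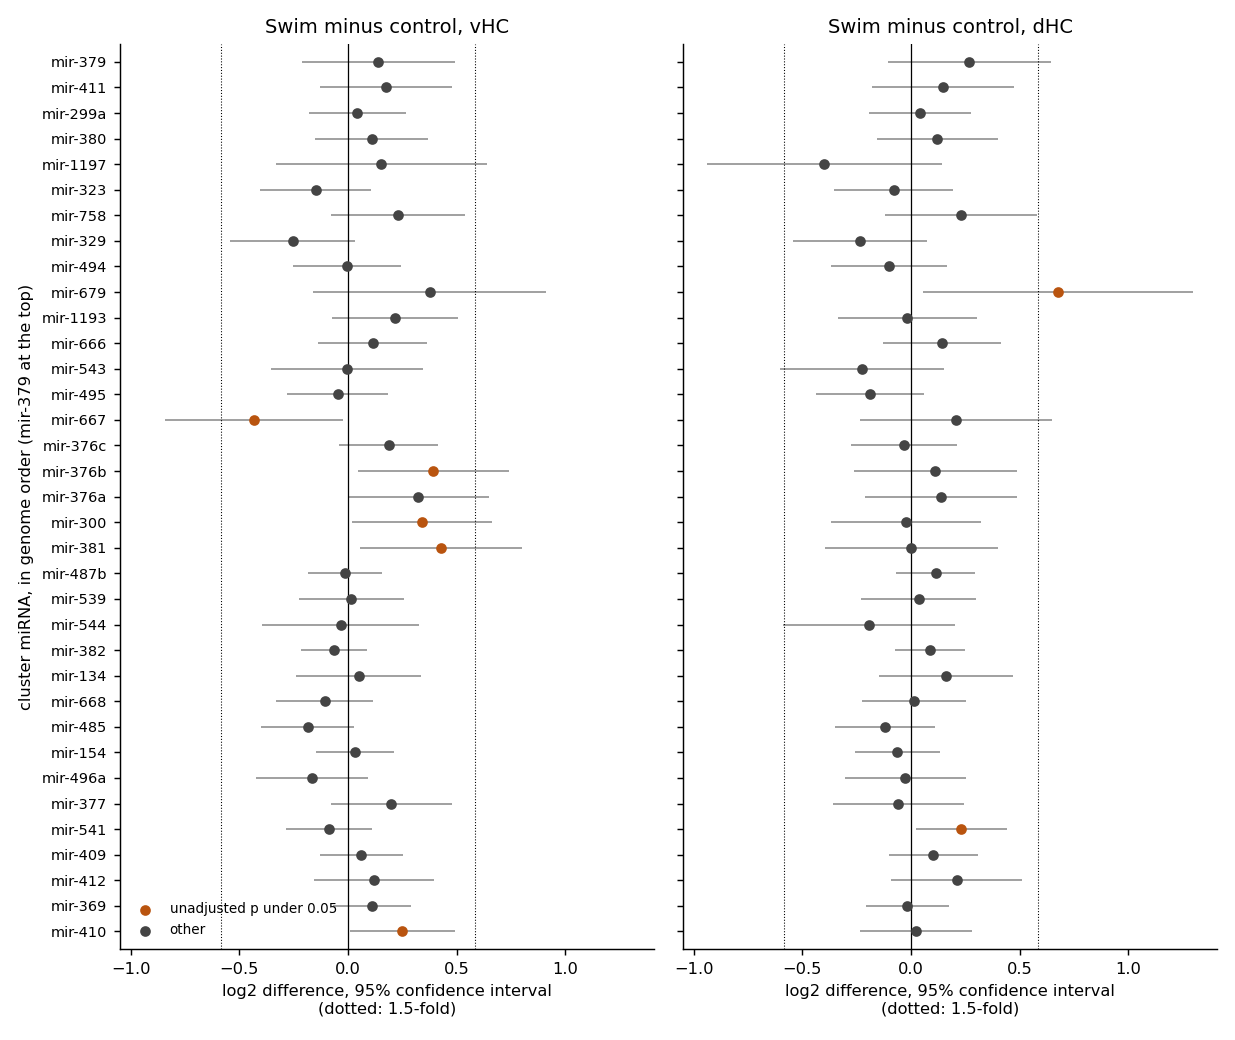
Swim minus control log2 difference of the 35 members in vHC and dHC, in genome order, with 95% confidence intervals. Dotted lines mark a 1.5-fold change, and orange points have an unadjusted p under 0.05. No member passed the adjusted threshold, and the medians lie at 0.06 in vHC and 0.02 in dHC.

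The swim difference was not called to differ between regions for any member (0 of 35, background 0%, with 2 members at an unadjusted p under 0.05 against 4.97% of all tested miRNAs). Those 2 were mir-541, with an interaction log2 value of 0.32 (SE 0.139, adjusted p = 0.954), and mir-667, with 0.64 (SE 0.293, adjusted p = 0.954). Without swim dHC 6 they were 0.19 and 0.53, and that of mir-134 went from 0.11 to -0.068. mir-667 was at 153, 351 and 520 CPM in control vHC, 175, 274 and 420 CPM in swim vHC, 171, 244 and 325 CPM in control dHC and 214, 259 and 415 CPM in swim dHC. All 4 groups overlapped. mir-381 (-0.43), mir-300 (-0.37) and mir-134 (0.11) followed with intervals that held 0. The interaction is the least precise of these tests, and its 95% interval lay within a 1.5-fold change for 22 of 35 members.

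Many members differed between the blocks, which the labels name only as blocks. Between the 3 blocks 18 of 35 members were called, a share close to that of all tested miRNAs (246 of 463, 53.1%), and 20 were at an unadjusted p under 0.05 (60.3% of all). Block 2 differed from block 1 for 17 members (52.5% of all), 6 higher and 11 lower, where 22.7% and 29.8% of all tested miRNAs were, with 19 at an unadjusted p under 0.05 (58.5% of all). Block 3 differed from block 1 for 17 members (52.1% of all), 5 higher and 12 lower, where 22% and 30% were, with 21 at an unadjusted p under 0.05 (58.3% of all). Between blocks 3 and 2 none was called (background 0%), with 7 members at an unadjusted p under 0.05 against 11% of all. The shift was not in 1 direction: members with high values in block 1 stood beside members with low ones.

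mir-410, mir-411 and mir-379 were highest in block 1. mir-411 was at 3358, 7766 and 9745 CPM in block 1, 3230, 4126 and 4767 CPM in block 2, and 4351, 4873 and 6159 CPM in block 3. The 3358 CPM is control vHC 1, and the other block 1 libraries lay above all of block 3. The log2 difference of block 2 from block 1 was -0.88 for mir-411 (SE 0.127, adjusted p = 3.99e-06), -0.91 for mir-410 (SE 0.12, adjusted p = 1.28e-06) and -0.73 for mir-379 (SE 0.14, adjusted p = 0.000131). mir-377 was at 186, 531 and 730 CPM in block 1 and 140, 198 and 343 CPM in block 2, with control vHC 1 again the lowest of block 1. mir-381 and mir-300 ran the other way: mir-381 was at 542, 1236 and 1493 CPM in block 1, 1126, 1554 and 1820 CPM in block 2 and 1720, 1982 and 2595 CPM in block 3. Its block 3 minus block 1 difference was 0.79 (SE 0.124, adjusted p = 9.82e-06), and that of mir-300 0.62 (SE 0.121, adjusted p = 0.000147). mir-485 was higher by 0.46 in block 2 and 0.44 in block 3. mir-134 was the member with the largest p for block, with differences of -0.04 and 0.06 and an adjusted p of 0.82. Without control vHC 1 the number of members called was again 18, and without swim dHC 6 it was 24, both without the share over all tested miRNAs.

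**Figure D5:**
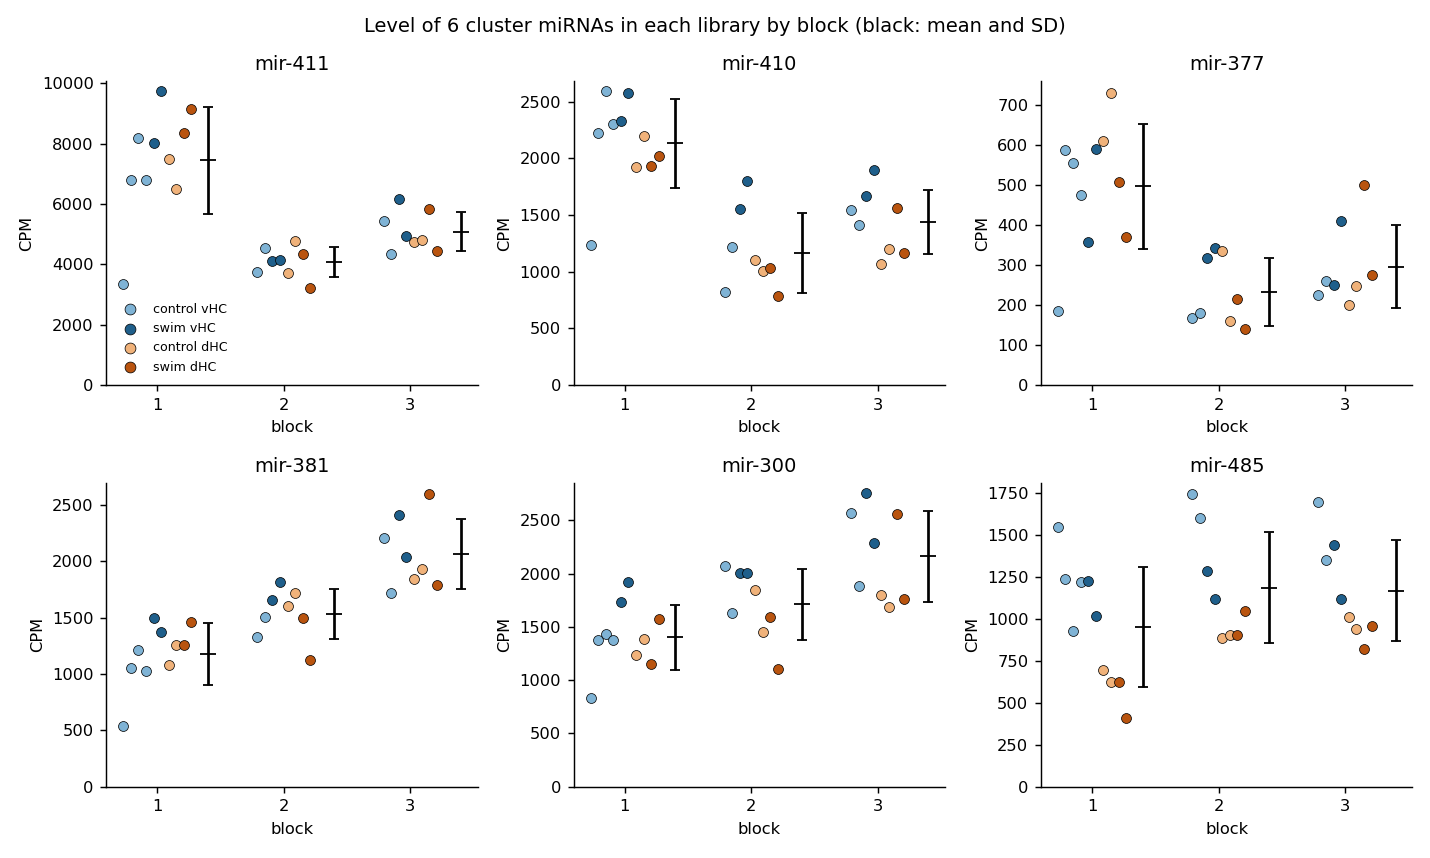
Level (CPM) of mir-411, mir-410, mir-377, mir-381, mir-300 and mir-485 in each library by block, coloured by group, with the black bar the mean and SD. mir-411, mir-410 and mir-377 have their highest library in block 1 and mir-381 and mir-300 theirs in block 3, and mir-485 has its lowest library, at 412 CPM, in block 1.

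The members did not move as 1 unit across libraries. The median Pearson correlation of log2 CPM over the 26 libraries was 0.28 across 595 pairs of members, with a range from -0.81 to 0.93, and 0.008 across all pairs of tested miRNAs. Once group and block means were removed it was 0.07 across members and 0.02 across all pairs. Members and the other Dlk1-Dio3 miRNAs had a median of 0.26 before and 0.04 after. The closest pairs were mir-323 with mir-668 (0.93), mir-541 with mir-409 (0.92) and mir-485 with mir-543 (0.91). mir-411 was closest to its neighbour mir-379 (0.89), and mir-300 to mir-381 (0.88). The counts of mir-411, mir-379, mir-300 and mir-381 were not whole in some libraries, and sharing of reads between them was not tested. mir-134 was closest to mir-666 (0.84). mir-299a had the lowest median correlation with the other members (-0.34), then mir-381 (-0.05). These values share libraries, depth and block, and are given as a description.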

How the data were processed

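Small RNA libraries (Nextflex v3 kit with molecular identifiers) of dHC and vHC were made by the authors, who removed adapters with cutadapt, kept 1 copy of each combination of sequence and identifier, and used Sports for quantification. The deposited values are expected counts per entry, not normalized by the authors, as read from the values, of which 29.5% are not whole. GRCm38 and cutadapt are named in the submitters' processing notes. The build behind the quantification is not given in the sources used here.

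The design assumed whole counts, so the expected counts were rounded to whole numbers. Library size was the sum of miRNA entries, 465387 to 4819724 per library. Entries were filtered by filterByExpr over the 4 groups (minimum count 10, minimum total 15), scaled by TMM and fitted by edgeR's quasi-likelihood test over all 26 libraries. Swim effects were tested with region, stress, their interaction and 2 surrogate variables (sva on DESeq2's transformed values, region in the null model). Region effects used block in place of the surrogate variables, and blocks were tested beside the groups. The block term was chosen with an earlier result of these data known, that a surrogate variable followed region. P-values were adjusted by Benjamini-Hochberg over all 463 entries, with a threshold of 0.05. Intervals are 95%. Most alternatives changed 1 choice at a time. The fits within 1 block also dropped the covariates, and the fit with library size over the whole table also dropped TMM. The fits were run on simulated counts as a check. Those counts held no block differences, so the check does not cover data that have them. All columns matched a sample (0 without).

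The members, and the lists beside them, were chosen with earlier results of these data known. By rule, values by group were given for mir-134, for the 5 most abundant members, for the 4 members with the smallest p in each comparison and for up to 10 called members per comparison. Other members named were chosen after their values were seen. Groups came from the labels. R 4.3.3, edgeR 4.0.16, limma 3.58.1, DESeq2 1.42.0, sva 3.50.0, Python 3.11.15 and matplotlib 3.10.9 were used.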

Additional observations from a re-analysis of the deposited data

Results flagged for a closer look

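Samples far from the rest of their group were found for 9 of 108 groups of 4 to 10 libraries, over 26 members and the cluster's share of miRNA counts, where chance gives about 1 in 20. Swim dHC 6 accounts for 3: mir-543 at 193 CPM (others 747 to 917), mir-495 at 499 CPM (others 790 to 929) and mir-412 at 315 CPM (others 147 to 199). Swim vHC 5 accounts for 2: mir-376c at 1182 CPM (others 695 to 805) and mir-412 at 471 CPM (others 240 to 324). mir-376b was at 5474 CPM in swim vHC 29 (others 2220 to 3254) and at 3128 CPM in control dHC 8 (others 1718 to 2203). mir-487b was at 5003 CPM in swim dHC 16 (others 3286 to 3666). mir-134 was at 316 CPM in control dHC 32 (others 224 to 258).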

How the results depend on the processing

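No member was called for swim under any alternative run. With 2 surrogate variables in place of block, 5 members were called for region in control mice and 6 after swim, and the median of all tested miRNAs moved to -0.22 and -0.19. The second surrogate variable lay mostly between regions. In that fit the control difference was 0.47 for mir-323, 0.31 for mir-487b, 0.38 for mir-668 and -0.23 for mir-299a, and the difference after swim was 0.11 for mir-382, 0.54 for mir-323, 0.36 for mir-369 and -0.24 for mir-299a. There mir-382 in control mice was at -0.042 (adjusted p = 0.951), mir-543 after swim at -0.13 (adjusted p = 0.912), and mir-134 in control mice passed the threshold at -1.22 (adjusted p = 0.0426). Within block 1, 2 and 3 alone, with fewer libraries and no covariates, 1, 9 and 1 members were called in control mice and 0, 1 and 2 after swim. In block 3 alone 3 small swim values changed sign: mir-495 in dHC (0.052), and the interactions of mir-300 (0.090) and mir-134 (-0.085). Leaving out 1 library at a time gave 13 to 15 members for region in control mice, 13 to 19 after swim and 13 to 24 between blocks, the last with 24 without swim dHC 6. It moved the swim difference of mir-134 in vHC between -0.037 and 0.12 and its interaction between -0.068 and 0.17. With no filter on low counts mir-299a after swim had an adjusted p of 0.0787. The remaining alternatives gave 13 to 15, 13 to 18 and 15 to 20 members. All these counts of called members stand without the share of all tested miRNAs called in the same fit. No paired analysis was run, because the labels do not tie dHC and vHC libraries to mice and no title number is shared between groups. Every dHC library has a vHC library of the same stress and block with the title number just below its own. No label says that such libraries share a mouse. The region tests treated all libraries as independent, and their standard errors take no account of such pairs. Depth limits mir-1197 and mir-679, the scarcest members.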
